A study of Mus musculus with 24 samples.

Results

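The comparison set the liver libraries labelled HF_KO against those labelled LF_C, 9 of the 24 libraries of the series, over all genes counted. Each library is the whole-liver RNA of 1 adult mouse. LF_C (n = 4) held control-genotype mice on the low-fat diet named LFCF, and HF_KO (n = 5) held mice on the high-fat diet named HFCF for 34 weeks in which a hepatocyte-specific knockout of PPARγ was induced after 24 weeks and lasted 10 weeks. HF_C (n = 5), control-genotype mice on HFCF for 34 weeks, is used beside them. None of these 3 groups received a drug. The weeks that LF_C spent on its diet, the strain and the sex are not given in the sources used here. Nor are the floxed allele and the agent that induced the knockout. PPARγ of the other liver cells is not a target of the labelled knockout. Diet and genotype differ together between HF_KO and LF_C and cannot be told apart there. The difference between the HF_KO and HF_C contrasts, which share the LF_C libraries, is the comparison of HF_KO with HF_C.

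PPARγ is a nuclear receptor that binds fatty acids and, as a partner of RXR, raises the transcription of genes for lipid uptake and storage. It is best known for driving adipocyte formation. In mouse liver it is low on ordinary diets and higher in fatty liver, where lipid droplet genes such as Plin4, Cidea and Cidec are among the genes linked to it. Steatohepatitis, the disease the diet models, joins fat-laden hepatocytes with inflammatory cells, proliferating bile duct cells and scar matrix made by stellate cells.

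Reads counted per library ran from 22.6 to 25.5 M in LF_C and from 23.3 to 26.8 M in HF_KO. Alb, the plasma protein albumin, held 6.43 ± 0.717% of the reads in LF_C (SD, n = 4) and 4.85 ± 0.352% in HF_KO (SD, n = 5), so both groups carried abundant hepatocyte RNA. Mitochondrial genes held 5.76 ± 0.327% and 5.00 ± 0.149%. LF_C 4 stood apart from the other 3 LF_C libraries on the second principal component (-46.2 against 15.7 to 21.2), and values without it are given where a call was lost or the members of a list called in 1 direction changed by 1.5 times or more, and for some lists whose median moved. Levels are CPM, read counts scaled to a common library size with TMM factors. A gene is said to rise or fall when its edgeR quasi-likelihood test gave a Benjamini-Hochberg adjusted p under 0.05 over all genes tested. In bulk liver, fewer cells of a type and less RNA per cell cannot be told apart.

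Of 14664 genes tested, 5331 differed between HF_KO and LF_C (36.4%), 2934 higher (20.0%) and 2397 lower (16.3%). The larger changes went mostly up: past a log2 fold change of 1 either way, 1764 genes were higher (12.0%) and 230 lower (1.57%). Without overlap between the groups, 2618 genes were higher (17.9%) and 1960 lower (13.4%). The split depends on the scaling. With library totals alone, 4543 genes were higher and 753 lower, and the middle gene had a log2 fold change of 0.20 in place of -0.02, so all changes are relative to TMM scaling. Some falls named in the text did not pass against LF_C with library totals. They were Rxra, Fitm1, Plin5, Col18a1, Akr1d1, Car8, Gas2, Ugt2a3, C8b, Pcx, Sh3bgrl2, Ghr, Lrtm1, Cela1, Hba-a1, Dnajb9 and Ppp1r15a. Their log2 fold changes ran from -0.92 (Lrtm1) to -0.26 (Pcx) with TMM and from -0.70 (Lrtm1) to -0.04 (Pcx) with library totals. Without LF_C 4, 5136 genes passed, 2924 higher and 2212 lower. In the libraries of the control genotype on the same diet, HF_C, 6003 of 14772 genes differed from LF_C (40.6%), 3168 higher (21.4%) and 2835 lower (19.2%). HF_KO and HF_C differed in 152 of 14844 genes (1.02%), 72 higher (0.485%) and 80 lower (0.539%).

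**Figure D1:**
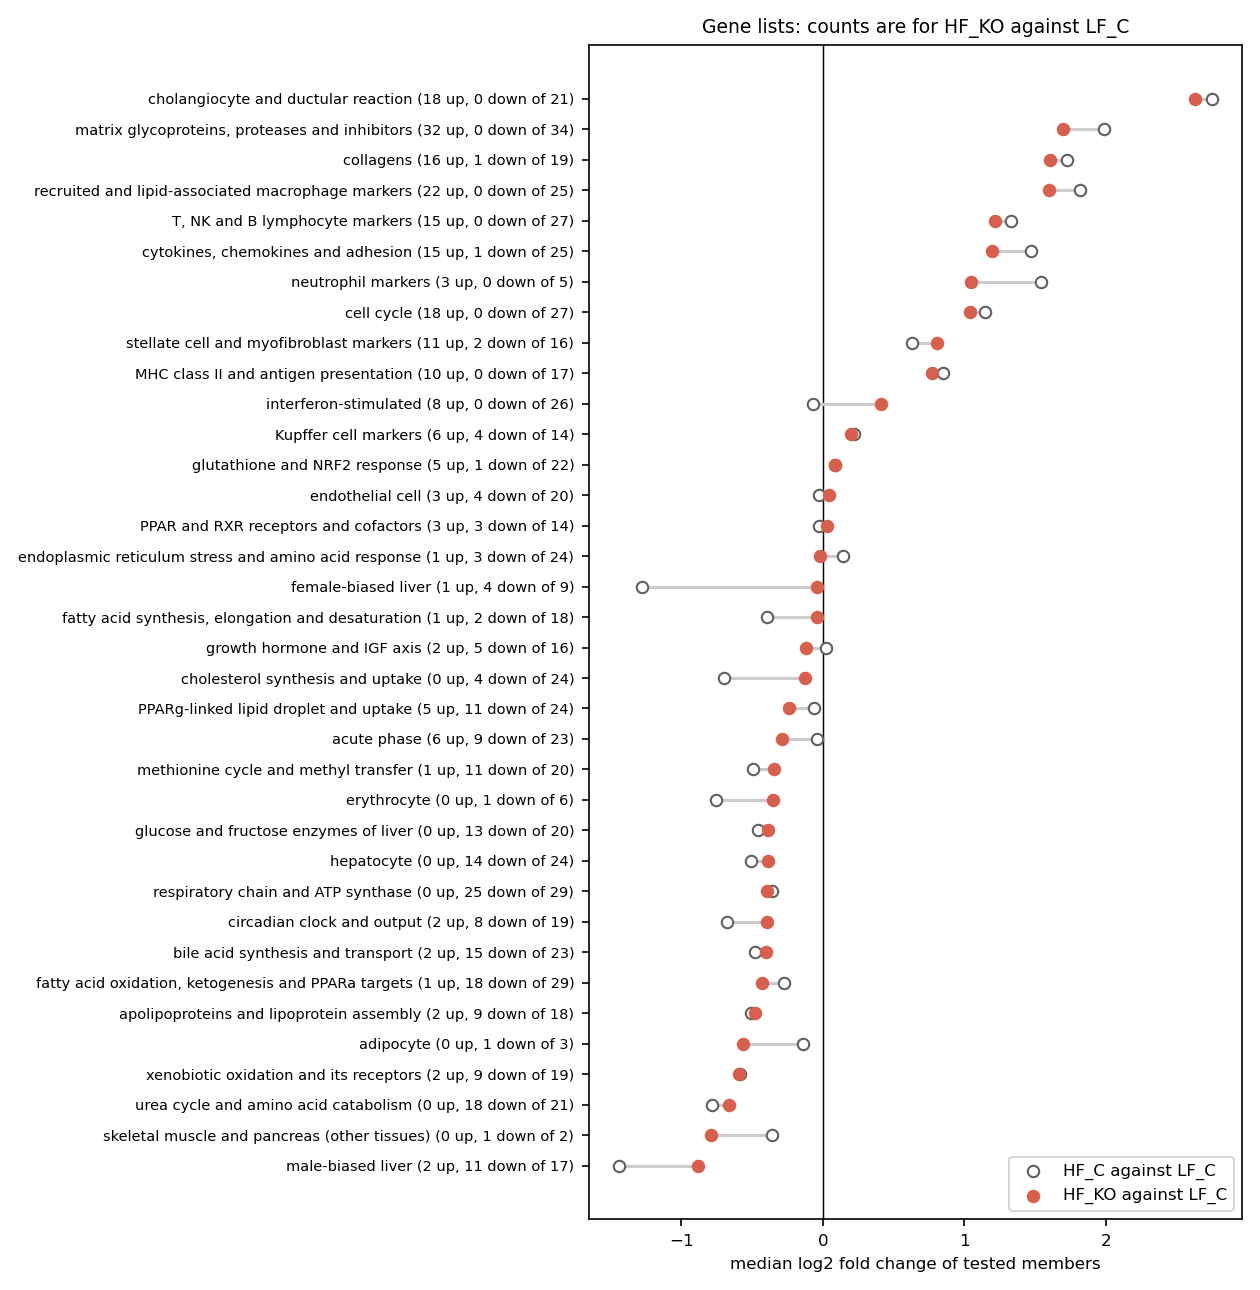
Median log2 fold change of the tested members of each of the 36 gene lists, in HF_KO against LF_C (filled) and in HF_C against LF_C (open), with the members higher and lower in HF_KO against LF_C beside each name. Bile duct, matrix and macrophage lists lie furthest right, from 1.60 to 2.63 in HF_KO, and the male-biased liver list lies at -0.88.

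Pparg itself (chromosome 6, 115361221 to 115490401, GRCm38/mm10) was read first, as the targeted gene. Its CPM were 16.3, 18.4, 16.7 and 10.0 in LF_C, 32.9, 33.7, 35.5, 28.3 and 31.8 in HF_C and 60.6, 57.7, 70.2, 68.8 and 63.2 in HF_KO, in replicate order. Every library labelled knockout was above every library of the other 2 groups. Against LF_C the level was 4.15-fold (log2 fold change 2.05, SE 0.15, edgeR adjusted p = 3.0e-06), and against HF_C it was 1.99-fold (log2 fold change 0.99, SE 0.08, edgeR adjusted p = 4.5e-05). The count sums all exons of the gene and all liver cells, so it does not show whether the deleted exons are missing, and the knockout label could not be checked with it. Of the other receptors and cofactors, Ppard rose (log2 fold change 0.37, SE 0.12, edgeR adjusted p = 0.0255) and Rxra, the RXR form most abundant in liver, fell (log2 fold change -0.46, SE 0.10, edgeR adjusted p = 0.0047). The list of PPAR and RXR receptors and cofactors had 3 members higher and 3 lower of 14 tested, near the 20.0% higher and 16.3% lower of all genes. With library totals 4 were higher and 0 lower. The Ppard call was lost without HF_KO 4, HF_KO 5, LF_C 1 or LF_C 3 (adjusted p up to 0.073), and without each of HF_KO 5, LF_C 1 and LF_C 3, 1 member was called higher.

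The lipid uptake and droplet genes linked to PPARγ did not move as 1 group. Of 24 members, all tested, 5 rose, near the 20.0% higher of all genes, and 11 fell, where 16.3% of all genes were lower. Their median log2 fold change was -0.24. In HF_C, 7 rose and 8 fell. Between HF_KO and HF_C, 0 members were higher and 5 lower in HF_KO. Library totals left 5 higher and 8 lower against LF_C (median -0.01), and leaving out LF_C 4 gave 4 and 10. The count of higher members was 3 without each of HF_KO 1, 2, 3 and 5 and LF_C 1 and 3.

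Among uptake genes, Lpl encodes lipoprotein lipase, which releases fatty acids from lipoproteins. Its CPM were 27.6, 28.2, 20.3 and 14.5 in LF_C and 176, 190.2, 152, 109 and 184 in HF_KO, without overlap. The rise was 7.14-fold (log2 fold change 2.84, SE 0.22, edgeR adjusted p = 3.7e-06), beside 10.6-fold in HF_C. Aqp7, a channel for glycerol and water, was near absent in LF_C at 0.193, 0.0864, 0 and 0.0497 CPM and stood at 4.09, 7.53, 5.12, 5.61 and 3.07 CPM in HF_KO. All HF_KO libraries were above all LF_C libraries, with a fitted log2 fold change 5.88, SE 0.49, edgeR adjusted p = 7.0e-06 on 7 reads in LF_C (6.65 without LF_C 1). Fabp4, a fatty acid carrier of adipocytes and macrophages, went from 8.31 ± 2.23 CPM (SD, n = 4) to 24.5 ± 7.59 (SD, n = 5), 2.93-fold (log2 fold change 1.55, SE 0.23, edgeR adjusted p = 2.8e-04). None of the 3 passed the test between HF_KO and HF_C (Lpl log2 difference -0.58, SE 0.15; Fabp4 -0.72, SE 0.20; Aqp7 -0.46, SE 0.27). Vldlr, the receptor for very low density lipoprotein, rose (log2 fold change 0.61, SE 0.22, edgeR adjusted p = 0.0448), a call lost without HF_KO 1, 2, 3 or 5 or LF_C 1 or 3 (adjusted p up to 0.11). Cd36, a fatty acid transporter, stood at 257 ± 82.4 CPM in LF_C and 316 ± 13.5 in HF_KO and did not pass (log2 fold change 0.30, SE 0.17, edgeR adjusted p = 0.18).

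Genes of the lipid droplet surface, Plin4, Cidea and Cidec, were lower in HF_KO than in the control genotype on the same diet. Plin4, a perilipin of small lipid droplets, had CPM of 69.0, 156, 36.5 and 44.2 in LF_C, 167, 109, 124, 183 and 133 in HF_C and 45.0, 22.4, 25.2, 25.3 and 29.3 in HF_KO. All HF_KO libraries were below all HF_C libraries, while LF_C 3 and 4 overlapped the HF_KO range. Plin4 fell 2.601-fold against LF_C (log2 fold change -1.38, SE 0.36, edgeR adjusted p = 0.0104) and was 4.84-fold lower than in HF_C (log2 fold change -2.27, SE 0.19, edgeR adjusted p = 5.7e-05), whereas HF_C itself did not pass against LF_C (log2 fold change 0.89, SE 0.36, edgeR adjusted p = 0.0642). LF_C 2 held the highest Plin4 level of LF_C, and without it the fall was smaller, at a log2 fold change of -0.76 (adjusted p = 0.0273). Plin4 overlaps Hdgfrp2, and with libraries that are not strand specific their reads may be shared. Cidea, which helps droplets fuse, had CPM of 2.90, 5.57, 1.10 and 0 in LF_C, 16.1, 64.3, 13.2, 29.8 and 35.3 in HF_C and 0.728, 3.45, 3.22, 7.69 and 2.78 in HF_KO. It rose in HF_C (log2 fold change 3.69, SE 0.70, edgeR adjusted p = 0.0014, or 4.55 without LF_C 2), was 8.74-fold lower in HF_KO than in HF_C (log2 fold change -3.13, SE 0.50, edgeR adjusted p = 0.0095) and overlapped between HF_KO and LF_C (log2 fold change 0.57, SE 0.75, edgeR adjusted p = 0.58). Cidec, its relative in large droplets, had CPM of 28.5, 80.9, 37.5 and 14.5 in LF_C, 159, 179.9, 164, 199 and 157 in HF_C and 71.7, 71.9, 86.7, 115 and 72.2 in HF_KO. Cidec was 2.06-fold above LF_C (log2 fold change 1.05, SE 0.36, edgeR adjusted p = 0.0397) and lower than in HF_C (log2 fold change -1.03, SE 0.13, edgeR adjusted p = 0.0016). LF_C 2 reached the HF_KO range of Cidec, and the rise against LF_C was lost when any 1 library other than LF_C 2 was left out (adjusted p up to 0.10). Without LF_C 2 it was 1.64. Plin5, another perilipin, fell against LF_C (log2 fold change -0.60, SE 0.21, edgeR adjusted p = 0.0434) and did not pass without LF_C 4 (-0.50, adjusted p = 0.105).

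Most of the other members named here act in the making and breakdown of triglyceride. G0s2, an inhibitor of the lipase Pnpla2, fell 2.65-fold, from 215 ± 36.2 CPM to 81.2 ± 15.9 (log2 fold change -1.41, SE 0.15, edgeR adjusted p = 3.0e-05). Lpin1, a phosphatidate phosphatase, fell 2.72-fold (log2 fold change -1.44, SE 0.21, edgeR adjusted p = 2.9e-04). Dgat2, the last enzyme of triglyceride synthesis, fell 1.55-fold (log2 fold change -0.64, SE 0.10, edgeR adjusted p = 5.4e-04). These 3 did not pass between HF_KO and HF_C. Fitm1 and Fitm2, which bind lipid as droplets bud from the endoplasmic reticulum, fell against LF_C (-0.61, edgeR adjusted p = 0.0047, and -0.86, adjusted p = 3.0e-04). Both were also lower than in HF_C (-0.75, edgeR adjusted p = 0.0347, and -0.46, adjusted p = 0.0299). These last calls were lost without HF_C 1, 4 or 5 or HF_KO 1, 2, 3 or 5 for Fitm1 and without HF_C 1 or 4 or HF_KO 1, 2 or 4 for Fitm2. Mogat1, an enzyme that joins fatty acids to monoacylglycerol, did not pass against LF_C (log2 fold change -0.12, SE 0.34, edgeR adjusted p = 0.8) or HF_C (log2 fold change -0.66, SE 0.38, edgeR adjusted p = 0.58).

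**Figure D2:**
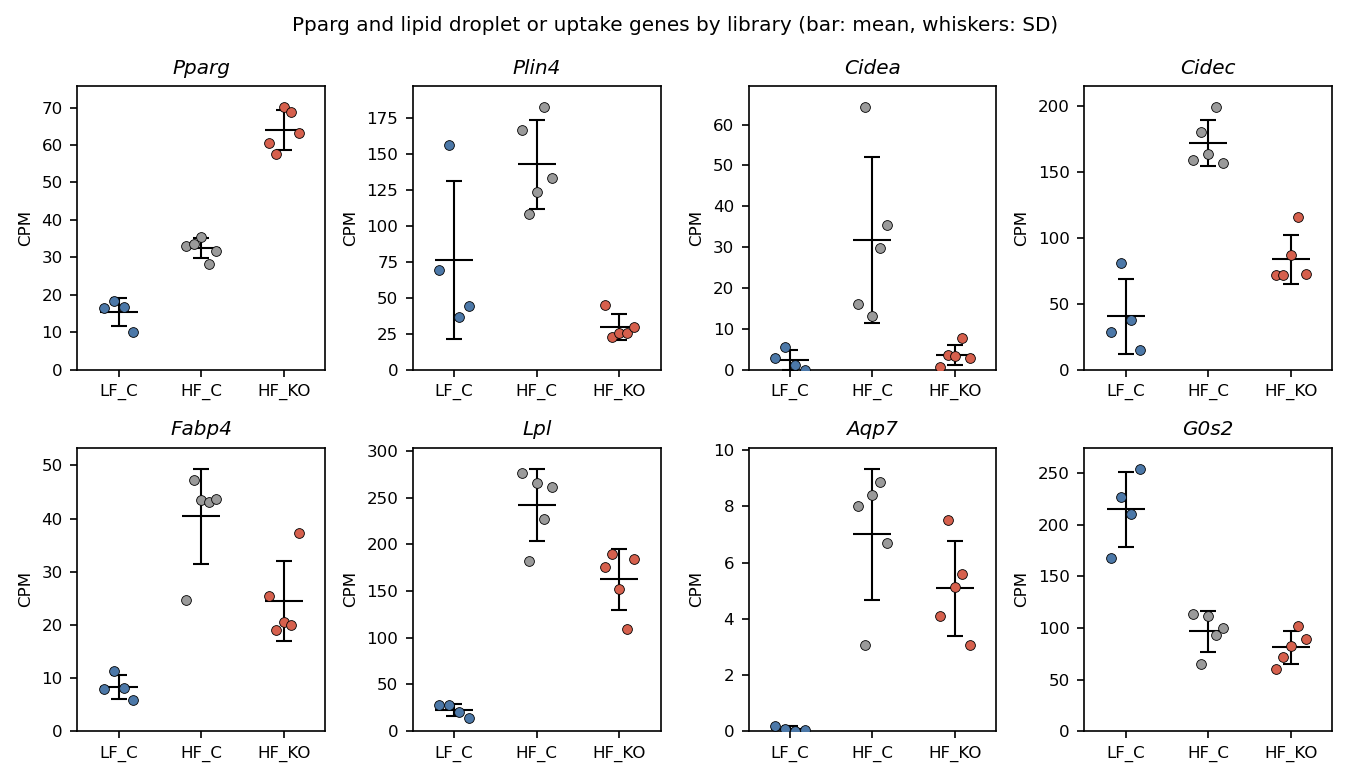
CPM of Pparg and 7 lipid genes in each library of LF_C, HF_C and HF_KO, each dot 1 mouse, with mean and SD. Plin4, Cidea and Cidec lie lower in HF_KO than in HF_C, while Pparg lies from 57.7 to 70.2 CPM in HF_KO, above all other libraries.

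The 250 bases before the transcript starts of 3 genes that were lower in HF_KO than in HF_C and of Aqp7, which did not pass between them, are shown as RefSeq gives them (GRCm38.p6), 5′ to 3′ on the gene's strand. Capitals mark AGGTCA or its reverse complement TGACCT, the half-site that nuclear receptors such as the PPARγ and RXR pair bind as a repeat.
Plin4 (chr17:56109783-56110032, - strand): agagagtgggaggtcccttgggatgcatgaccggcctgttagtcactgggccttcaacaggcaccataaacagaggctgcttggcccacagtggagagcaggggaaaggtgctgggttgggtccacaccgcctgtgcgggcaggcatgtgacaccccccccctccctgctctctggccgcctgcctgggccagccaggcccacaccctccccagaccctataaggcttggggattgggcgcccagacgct
Cidec (chr6:113435761-113436010, - strand): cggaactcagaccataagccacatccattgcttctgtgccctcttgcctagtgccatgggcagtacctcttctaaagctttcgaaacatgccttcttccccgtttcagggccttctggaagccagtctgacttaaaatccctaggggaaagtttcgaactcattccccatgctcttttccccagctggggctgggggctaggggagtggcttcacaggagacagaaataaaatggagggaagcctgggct
Sdcbp2 (chr2:151572373-151572622, + strand): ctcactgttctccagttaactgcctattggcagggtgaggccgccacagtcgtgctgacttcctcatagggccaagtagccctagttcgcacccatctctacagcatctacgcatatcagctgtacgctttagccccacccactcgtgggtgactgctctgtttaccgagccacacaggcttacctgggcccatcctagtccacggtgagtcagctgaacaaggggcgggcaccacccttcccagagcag
Aqp7 (chr4:41048137-41048386, - strand): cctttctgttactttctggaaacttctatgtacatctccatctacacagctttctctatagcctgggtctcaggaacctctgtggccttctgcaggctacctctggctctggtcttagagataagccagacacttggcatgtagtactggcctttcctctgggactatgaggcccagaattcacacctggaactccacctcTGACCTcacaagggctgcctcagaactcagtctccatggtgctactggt
Cidec and Aqp7 each have 2 windows in the RefSeq table, and the first listed is shown. The Aqp7 window shown holds 1 half-site and its other window 2, and the windows of Plin4, Cidec (both) and Sdcbp2 hold none on either strand. Over 32851 such windows, 14.0% held AGGTCA and 11 (0.0335%) held the repeat AGGTCANAGGTCA. None of the windows of these 4 genes held the repeat, which says only that these letters are not in them.

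Beyond lipid droplets, most of the genes with the smallest adjusted p between HF_KO and HF_C showed 1 of 2 patterns against LF_C. In the first, a level that was higher in HF_C lay nearer LF_C in HF_KO. Sdcbp2, which encodes a syntenin family adaptor protein, had CPM of 0.193, 0.302, 0.0881 and 0.397 in LF_C, 13.7, 7.70, 16.4, 17.1 and 10.1 in HF_C and 1.05, 0.791, 0.556, 0.733 and 0.74 in HF_KO. No library of one group entered the range of another. HF_KO was 3.13-fold above LF_C (log2 fold change 1.64, SE 0.42, edgeR adjusted p = 0.0092) and 16.7-fold below HF_C (log2 fold change -4.06, SE 0.25, edgeR adjusted p = 6.1e-06). Kbtbd11, a BTB-Kelch protein, stood at 2.72 ± 2.23 CPM in LF_C, 12.9 ± 2.15 in HF_C and 3.29 ± 0.687 in HF_KO. It did not pass against LF_C (log2 fold change 0.26, SE 0.39, edgeR adjusted p = 0.63) and was lower than in HF_C (log2 fold change -1.97, SE 0.16, edgeR adjusted p = 5.7e-05). Hk2, a hexokinase that is scarce in healthy liver, rose against LF_C (log2 fold change 1.82, SE 0.24, edgeR adjusted p = 1.5e-04), to 9.17 ± 1.60 CPM, and lay below the 19.1 ± 1.62 CPM of HF_C (log2 fold change -1.06, SE 0.11, edgeR adjusted p = 5.2e-04). Limk1, a kinase of actin turnover, did the same, 0.87 against LF_C (edgeR adjusted p = 0.0031) and -1.10 against HF_C (adjusted p = 1.8e-04).

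Cfd, the serine protease adipsin that adipocytes secrete, had CPM of 0.387, 0.0432, 0.352 and 0 in LF_C, 5.87, 20.8, 6.59, 10.4 and 2.92 in HF_C and 0.445, 0.125, 0.119, 0.0366 and 0.111 in HF_KO. It was too low to be tested in HF_KO against LF_C and was lower in HF_KO than in HF_C (log2 fold change -5.77, SE 0.63, edgeR adjusted p = 5.2e-04; -6.51 without HF_KO 1). Of the 10 adipocyte genes, 4 were tested between HF_KO and HF_C and Cfd was the 1 that passed, while 3 were tested against LF_C and 1 was lower. Adipoq, Plin1 and Slc7a10 had 0 reads in HF_KO, and in HF_C Adipoq and Slc7a10 had 0 and Plin1 had 2, all in HF_C 3, too few to compare. Rufy4, Ermp1, Nap1l1 and Sh3bgrl2 were also lower in HF_KO than in HF_C, by log2 fold changes from -0.54 to -1.82. Of these 4, Sh3bgrl2 passed against LF_C, lower (log2 fold change -0.50, SE 0.13, edgeR adjusted p = 0.0079).

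In the second pattern, a gene that fell in HF_C lay nearer LF_C in HF_KO. Akr1d1, the reductase that shapes the steroid ring of bile acids, had CPM of 237, 201, 233 and 273 in LF_C, 125, 75.9, 94.9, 74.8 and 74.4 in HF_C and 192, 173, 223, 160.4 and 169.7 in HF_KO. All HF_KO libraries were above all HF_C libraries (log2 fold change 1.05, SE 0.14, edgeR adjusted p = 0.0037), and the fall against LF_C (log2 fold change -0.37, SE 0.11, edgeR adjusted p = 0.0251) was lost without HF_KO 2, HF_KO 4, HF_KO 5 or LF_C 4 (adjusted p up to 0.062). C8b, a component of the complement membrane attack complex, stood at 131 ± 33.7, 56.3 ± 6.39 and 98.4 ± 7.47 CPM in LF_C, HF_C and HF_KO (log2 fold change 0.81, SE 0.08, edgeR adjusted p = 2.9e-04 between HF_KO and HF_C). Its fall against LF_C (log2 fold change -0.42, edgeR adjusted p = 0.0353) did not pass without LF_C 4 (-0.23, adjusted p = 0.0898). Ugt2a3, a glucuronosyltransferase, fell against LF_C (log2 fold change -0.50, SE 0.13, edgeR adjusted p = 0.0104) and was above HF_C (log2 fold change 0.63, SE 0.09, edgeR adjusted p = 0.0042). Bhmt2, a methyltransferase that makes methionine, stood at 233 ± 28.7, 167 ± 5.14 and 217 ± 10.8 CPM and was above HF_C (log2 fold change 0.38, SE 0.06, edgeR adjusted p = 0.0053). Aqp4, a water channel, was also above HF_C (log2 fold change 1.40, SE 0.20, edgeR adjusted p = 0.0044) and overlapped LF_C. Lrtm1, Gas2 and Car8 were above HF_C by 2.68, 0.61 and 0.48 on the log2 scale. Defb1, an antimicrobial defensin, differed from this pattern: it was above both, by 1.01 against LF_C (edgeR adjusted p = 0.0032) and by 1.22 against HF_C (adjusted p = 9.9e-04).

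Pcx was the 1 list member called in opposite directions in the 2 diet contrasts. It encodes pyruvate carboxylase, which feeds gluconeogenesis and the citric acid cycle. Its CPM were 751, 835, 805 and 716 in LF_C, 909, 1032, 817, 956 and 938 in HF_C and 571, 658, 703, 719 and 606 in HF_KO. HF_KO lay below LF_C (log2 fold change -0.26, SE 0.09, edgeR adjusted p = 0.0464) with 1 of its libraries inside the LF_C range, and below all HF_C libraries (log2 fold change -0.51, SE 0.08, edgeR adjusted p = 0.0095). The call against LF_C was lost without HF_KO 1, 2, 3 or 5 or LF_C 1, 2 or 3 (adjusted p up to 0.12).

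**Figure D3:**
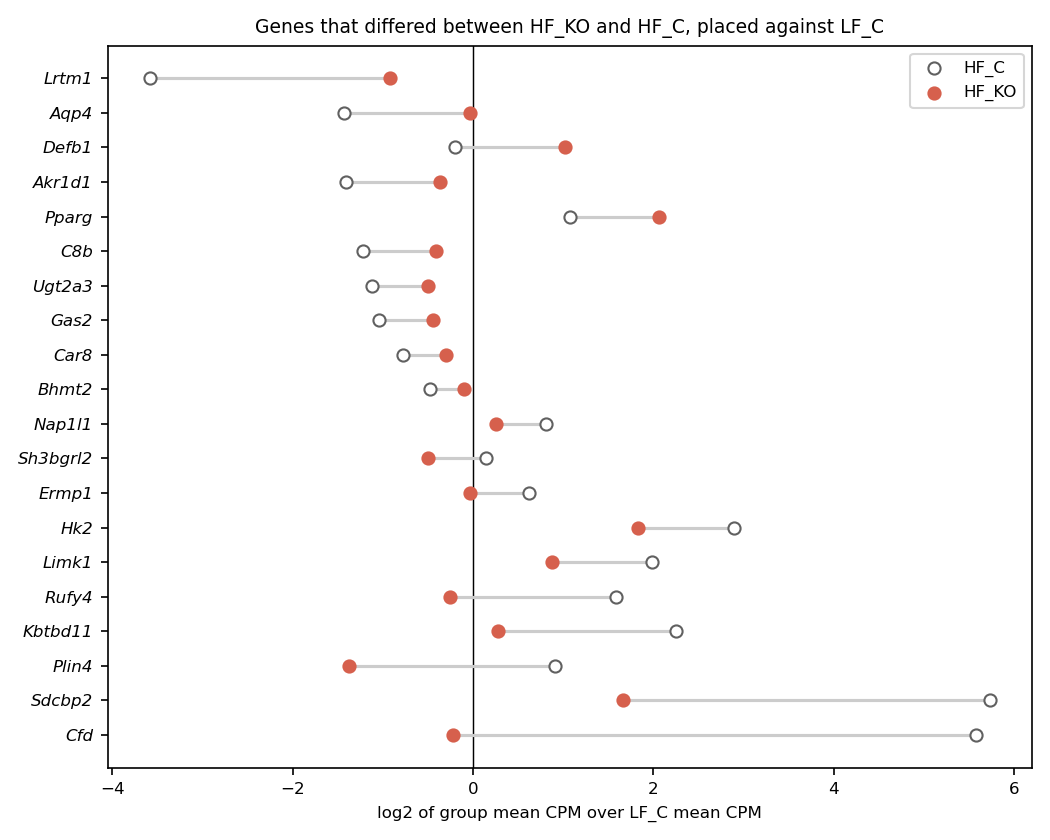
Group mean CPM of HF_C (open) and HF_KO (filled) over the LF_C mean, on a log2 scale, for the 10 genes with the smallest adjusted p in each direction between HF_KO and HF_C. For most of them HF_KO lies nearer 0, the LF_C level, than HF_C does; Plin4, Pparg, Defb1 and Sh3bgrl2 are further from 0 in HF_KO.

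Scar matrix genes were higher in HF_KO than in LF_C almost throughout. Of 19 collagen genes, 16 rose and 1 fell, with a median log2 fold change of 1.61, and of 34 matrix glycoproteins, proteases and inhibitors 32 rose and 0 fell (median 1.70). The same counts were 16 higher of 19 and 32 of 34 in HF_C. Between HF_KO and HF_C, 0 members of either list passed, with median differences of -0.13 and -0.16.

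Col1a1, a chain of fibrillar type I collagen, had CPM of 17.8, 20.9, 16.6 and 11.5 in LF_C and 111, 187, 146, 148 and 168 in HF_KO. The groups were far apart, 9.08-fold (log2 fold change 3.18, SE 0.19, edgeR adjusted p = 7.4e-07). The 5 HF_C libraries held 133, 179.9, 229, 196 and 184 CPM, overlapping HF_KO (log2 fold change -0.27, SE 0.14, edgeR adjusted p = 0.53 between them). Col3a1, another fibrillar collagen, rose 7.60-fold (log2 fold change 2.93, SE 0.23, edgeR adjusted p = 5.3e-06) and Col6a3, of the beaded filaments, 5.26-fold (log2 fold change 2.39, SE 0.12, edgeR adjusted p = 5.8e-07). Timp1, an inhibitor of matrix proteases, had CPM of 0.338, 0.648, 0.617 and 0.149 in LF_C and 3.88, 4.49, 3.14, 4.62 and 5.44 in HF_KO. It rose 9.56-fold (log2 fold change 3.26, SE 0.34, edgeR adjusted p = 2.5e-05), and it overlaps Syn1 on the genome. Mmp2, a gelatinase, rose 6.11-fold (log2 fold change 2.61, SE 0.15, edgeR adjusted p = 5.8e-07), the proteoglycan Lum 5.50-fold (log2 fold change 2.46, SE 0.17, edgeR adjusted p = 1.9e-06) and Tgfb2, a fibrogenic growth factor, 9.50-fold (log2 fold change 3.25, SE 0.26, edgeR adjusted p = 5.1e-06). Col18a1, of basement membranes and made by hepatocytes too, was the 1 collagen that fell (log2 fold change -0.28, SE 0.09, edgeR adjusted p = 0.0262), a call lost without HF_KO 2, 3 or 5 or LF_C 1 (adjusted p up to 0.063).

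Markers of the matrix-producing stellate cells moved less than the matrix. Of 16 tested, 11 rose and 2 fell (median 0.80), or 12 and 1 without LF_C 4, where Ecm1 did not pass, and their summed level was 495 to 617 CPM in LF_C and 807 to 938 in HF_KO. Pdgfrb, the receptor for platelet-derived growth factor, rose 2.89-fold (log2 fold change 1.53, SE 0.13, edgeR adjusted p = 7.9e-06) and Vim, an intermediate filament, 2.602-fold (log2 fold change 1.38, SE 0.17, edgeR adjusted p = 8.2e-05). Lrat, which stores vitamin A in stellate cells, rose 1.78-fold (log2 fold change 0.83, SE 0.14, edgeR adjusted p = 7.4e-04). Acta2, the smooth muscle actin of myofibroblasts, had CPM of 1.98, 3.50, 2.51 and 1.59 in LF_C and 4.05, 4.12, 2.94, 4.73 and 6.40 in HF_KO. These overlapped, and the rise (log2 fold change 0.88, SE 0.27, edgeR adjusted p = 0.0223) was lost without HF_KO 5 or LF_C 1 (adjusted p up to 0.057). Tpm2, a tropomyosin of contractile cells, had CPM of 8.70, 8.51, 8.41 and 9.74 in LF_C, 9.42, 11.0, 7.03, 11.5 and 7.81 in HF_C and 4.90, 3.91, 5.04, 4.36 and 6.14 in HF_KO. It fell (log2 fold change -0.86, SE 0.15, edgeR adjusted p = 8.5e-04), was also lower than in HF_C (log2 fold change -0.93, SE 0.16, edgeR adjusted p = 0.0159; not passing without HF_C 4, adjusted p = 0.051), and did not pass in HF_C against LF_C (log2 fold change 0.07, SE 0.16, edgeR adjusted p = 0.75).

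Macrophage genes were listed by kind. Of 25 markers of recruited and lipid-associated macrophages, 22 rose and 0 fell (median 1.60, beside 1.82 in HF_C), and their summed level was 1506 to 1830 CPM in LF_C and 2785 to 3189 in HF_KO. Trem2, a lipid-sensing receptor, had CPM of 1.06, 2.29, 1.06 and 0.944 in LF_C and 13.2, 17.1, 17.7, 10.6 and 17.2 in HF_KO, 11.1-fold (log2 fold change 3.48, SE 0.27, edgeR adjusted p = 4.2e-06). Gpnmb, a glycoprotein of lipid-laden macrophages, had CPM of 1.498, 4.97, 1.01 and 1.39 and 45.9, 61.1, 40.5, 21.8 and 50.5, 19.5-fold (log2 fold change 4.29, SE 0.43, edgeR adjusted p = 2.0e-05; 5.08 without LF_C 2). Neither gene overlapped between the groups. Spp1, osteopontin, rose 12.6-fold to 652 ± 52.8 CPM (log2 fold change 3.65, SE 0.22, edgeR adjusted p = 7.4e-07) and Itgax, the integrin CD11c, 10.6-fold (log2 fold change 3.41, SE 0.25, edgeR adjusted p = 2.7e-06). None of the 25 passed between HF_KO and HF_C, with a median difference of -0.23.

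Genes of resident Kupffer cells went both ways, where 20.0% of all genes were higher and 16.3% lower. Of 14, 6 rose and 4 fell, or 6 and 6 without LF_C 4, where the median went from 0.20 to 0.03. Complement C1qa, C1qb and C1qc, made by macrophages of either kind, rose by 0.65, 0.94 and 0.77 on the log2 scale (edgeR adjusted p = 0.0024, 5.3e-04 and 0.0018). Id3 and Cd5l of the same list rose by 0.42 and 0.75 (edgeR adjusted p = 0.012 and 0.0249). Cd163, the scavenger receptor for haemoglobin, had CPM of 28.8, 44.3, 32.3 and 13.9 in LF_C, 0.623, 0.383, 0.572, 0.45 and 4.18 in HF_C and 0.324, 0.583, 2.82, 1.17 and 1.44 in HF_KO, a 23.4-fold fall (log2 fold change -4.55, SE 0.45, edgeR adjusted p = 1.8e-05). Timd4, a receptor for dying cells, had CPM of 16.9, 11.0, 14.7 and 6.86 in LF_C and 1.17, 1.37, 2.94, 1.39 and 2.04 in HF_KO, a 6.94-fold fall (log2 fold change -2.80, SE 0.30, edgeR adjusted p = 3.7e-05). Every HF_KO library was below every LF_C library for both. Marco, another scavenger receptor, fell 14.3-fold (log2 fold change -3.84, SE 0.57, edgeR adjusted p = 3.4e-04; -5.07 without HF_KO 3). Clec4f, a lectin of Kupffer cells, had CPM of 171, 147, 160.2 and 92.0 in LF_C and 89.7, 117, 127, 141 and 139.8 in HF_KO and did not pass (log2 fold change -0.22, SE 0.17, edgeR adjusted p = 0.36).

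Other immune lists rose in part. Of 27 lymphocyte markers tested, 15 rose and 0 fell, 9 without each of HF_KO 1, 2 and 5. Cd8a, of cytotoxic T cells, had CPM of 0.0967, 0.216, 0.573 and 0.199 in LF_C and 3.24, 6.87, 1.71, 2.05 and 2.07 in HF_KO, highest in HF_KO 2 and without overlap (log2 fold change 3.50, SE 0.57, edgeR adjusted p = 5.7e-04; 4.17 without LF_C 3). Gzmk, a granzyme, had 1 read in all of LF_C and 125 in HF_KO. The ratio of read shares was 98.1, with an exact 95% interval from 17.3 to 3905 that covers counting error only. Ptprc, the leukocyte antigen CD45, rose 2.32-fold (log2 fold change 1.21, SE 0.14, edgeR adjusted p = 7.1e-05). Of 17 antigen presentation genes, 10 rose. H2-Aa, a class II chain, had CPM of 33.8, 49.6, 38.1 and 34.7 in LF_C and 252, 237, 146, 144 and 186 in HF_KO (log2 fold change 2.30, SE 0.19, edgeR adjusted p = 6.7e-06). Class II genes have close relatives, so reads may be shared among them. Of 25 cytokines, chemokines and adhesion genes tested, 15 rose and 1 fell. Ccl2, which draws monocytes, went from 1.37 ± 0.543 to 6.15 ± 1.71 CPM (log2 fold change 2.15, SE 0.29, edgeR adjusted p = 1.8e-04). The 1 that fell was Cxcl13, a B cell chemokine, from 5.32 ± 3.56 to 0.384 ± 0.293 CPM (log2 fold change -3.80, SE 0.51, edgeR adjusted p = 1.6e-04). Of 26 interferon-stimulated genes, 8 rose and 0 fell in HF_KO (median 0.41), beside 9 and 5 in HF_C (median -0.07). None of these 26 passed between HF_KO and HF_C. Of 12 neutrophil genes 5 were tested and 3 rose, among them Lcn2, which hepatocytes also make (log2 fold change 2.41, SE 0.37, edgeR adjusted p = 3.7e-04), and 6 rose with DESeq2 or with no filter. Mpo had 0 reads in LF_C and 32 in HF_KO, at least 8.37-fold higher against a floor of 3 reads for the group.

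The bile duct list had the highest median of all lists, 2.63 in HF_KO and 2.75 in HF_C. Of 21 members, 18 rose and 0 fell. Without LF_C 4, where the median was 2.45, 1 was lower, the water channel Aqp1 (log2 fold change -0.53, edgeR adjusted p = 0.0173). Sox9, a transcription factor of duct cells and of hepatocytes turning duct-like, had CPM of 6.04, 6.69, 4.67 and 4.07 in LF_C and 29.3, 21.6, 20.6, 28.3 and 26.4 in HF_KO, 4.68-fold (log2 fold change 2.23, SE 0.17, edgeR adjusted p = 3.4e-06). Krt19, a duct keratin, had CPM of 0.532, 2.63, 1.45 and 0.397 and 5.14, 5.12, 7.23, 9.49 and 7.40, 5.37-fold (log2 fold change 2.42, SE 0.42, edgeR adjusted p = 9.3e-04; 3.08 without LF_C 2). Ehf, an epithelial transcription factor, rose 13.4-fold (log2 fold change 3.74, SE 0.20, edgeR adjusted p = 5.8e-07). No HF_KO library of these 3 reached down to LF_C. Dividing-cell genes rose less: 18 of 27 tested (median 1.04), among them Mki67 at 6.38, 6.43, 7.58 and 2.73 CPM in LF_C and 14.0, 18.2, 14.6, 17.8 and 18.9 in HF_KO (log2 fold change 1.52, SE 0.23, edgeR adjusted p = 3.8e-04). None of the members of these 2 lists passed between HF_KO and HF_C.

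**Figure D4:**
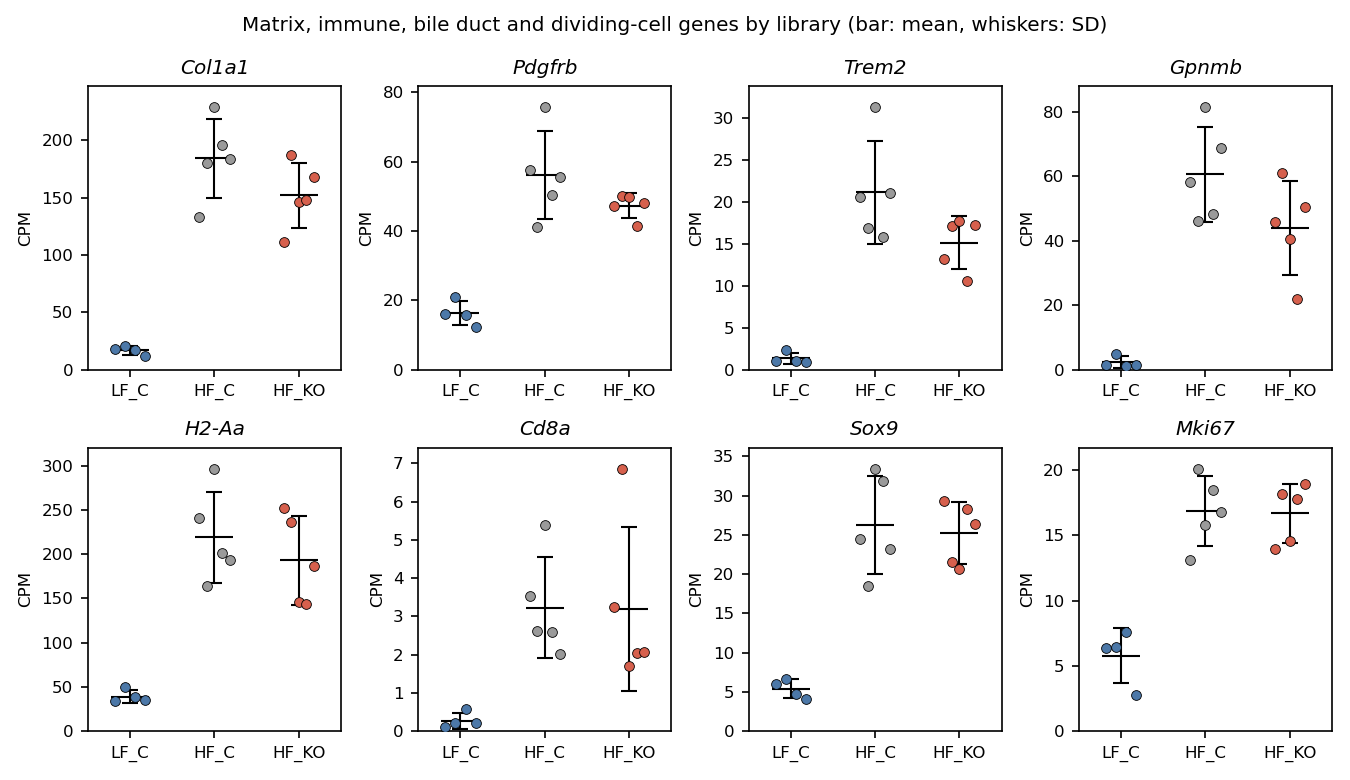
CPM of 8 matrix, immune, bile duct and dividing-cell genes in each library, each dot 1 mouse, with mean and SD. For all 8 the HF_KO libraries lie above the LF_C libraries and share the range of HF_C, as with Col1a1 at 111 to 187 CPM in HF_KO.

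Hepatocyte functions were lower by smaller amounts. Of 24 hepatocyte genes tested, 0 rose and 14 fell (median -0.39), 12 without LF_C 4 (median -0.28) and 9 with library totals. Their summed level was 91460.3 to 132016 CPM in LF_C and 70147 to 80266 in HF_KO. Alb had CPM of 58992, 70068, 78077 and 84959 in LF_C and 50442, 47592, 50648, 42706 and 44574 in HF_KO, 1.55-fold lower without overlap (log2 fold change -0.63, SE 0.14, edgeR adjusted p = 0.0037). Of 21 urea cycle and amino acid catabolism genes 18 fell and 0 rose (median -0.66, or -0.46 without LF_C 4), and 15 fell with library totals. Arg1, the arginase that releases urea, had CPM of 1279, 1334, 1170.4 and 1791 and 814, 677, 712, 594 and 686, 2.01-fold lower without overlap (log2 fold change -1.004, SE 0.13, edgeR adjusted p = 1.2e-04). Of 20 glucose and fructose genes 13 fell, 8 with library totals. Pck1, the gatekeeper of gluconeogenesis, had CPM of 2353, 2885, 2161 and 3629 and 1259, 618, 991, 615 and 792, 3.23-fold lower (log2 fold change -1.69, SE 0.22, edgeR adjusted p = 1.2e-04), and G6pc, which releases free glucose, was 2.52-fold lower (log2 fold change -1.34, SE 0.23, edgeR adjusted p = 8.7e-04). Of 29 genes of the respiratory chain and ATP synthase 25 fell, with log2 fold changes of the 29 from -0.60 to -0.17, 2 with library totals and 22 without LF_C 4.

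Bile acid genes were mostly lower, and the 2 that rose were Abcc4 and Cyp7a1. Of 23 genes of bile acid synthesis and transport 2 rose and 15 fell (median -0.40), 2 and 7 with library totals and 2 and 12 without LF_C 4 (median -0.28). Cyp7a1, the rate-limiting enzyme of bile acid synthesis, had CPM of 171, 138, 104 and 131 in LF_C, 212, 59.4, 198, 141 and 73.0 in HF_C and 420.2, 405, 478, 142 and 141 in HF_KO. HF_KO 1, 2 and 3 were above every other library, and HF_KO 4 and 5 lay inside the LF_C range. The rise against LF_C (log2 fold change 1.22, SE 0.35, edgeR adjusted p = 0.0173) was lost without LF_C 3 (adjusted p = 0.052), and HF_KO did not pass against HF_C (log2 fold change 1.22, SE 0.41, edgeR adjusted p = 0.24). Slc10a1, the bile acid uptake carrier of hepatocytes, had CPM of 759, 619.7, 734 and 937 in LF_C and 360.3, 335, 423, 359 and 230.5 in HF_KO, 2.24-fold lower without overlap (log2 fold change -1.16, SE 0.16, edgeR adjusted p = 2.0e-04). Abcb11, the bile salt export pump, fell 1.47-fold (log2 fold change -0.55, SE 0.10, edgeR adjusted p = 8.7e-04). Cyp8b1, which sets the share of cholic acid, did not pass (log2 fold change -0.27, SE 0.21, edgeR adjusted p = 0.35).

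Few genes of sterol and fatty acid synthesis passed against LF_C, and the sterol median depended on LF_C 4 and on the scaling. Of 24 genes of cholesterol synthesis and uptake, 0 rose and 4 fell in HF_KO (median -0.13), beside 14 lower in HF_C (median -0.70). The 4 lower in HF_KO were near the 16.3% lower of all genes, where 20.0% were higher. In HF_C, 19.2% of all genes were lower. The HF_KO median of the 24 was 0.08 with library totals and -0.34 without LF_C 4, and 6 fell without LF_C 4. Without each of HF_KO 1, 2 and 5 and LF_C 1 and 3, 2 fell. The test of the difference called 0 of the 24 between HF_KO and HF_C, with a median of 0.53. Tm7sf2, a sterol reductase that overlaps Vps51, fell 1.85-fold (log2 fold change -0.88, SE 0.19, edgeR adjusted p = 0.003). Sqle, squalene epoxidase, had CPM of 77.8, 46.5, 85.0 and 19.0 in LF_C, 14.4, 46.9, 29.2, 20.03 and 20.4 in HF_C and 55.3, 31.8, 63.4, 77.7 and 43.0 in HF_KO. It overlapped in all 3 groups (log2 fold change -0.08, SE 0.36, edgeR adjusted p = 0.88 against LF_C, and log2 fold change 1.06, SE 0.29, edgeR adjusted p = 0.13 against HF_C). Of 18 genes of fatty acid synthesis 1 rose and 2 fell (4 without LF_C 4). The 1 that rose was Scd2, a desaturase that adult hepatocytes barely use, with CPM of 12.5, 16.8, 15.4 and 6.56 in LF_C and 66.3, 78.1, 78.8, 71.7 and 110.4 in HF_KO, 6.28-fold (log2 fold change 2.65, SE 0.24, edgeR adjusted p = 1.1e-05). Fasn, the fatty acid synthase, and Scd1, the main liver desaturase, overlapped between groups (0.02, SE 0.31, and 0.23, SE 0.15, neither passing).

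Fatty acid oxidation genes and targets of PPARα, the receptor that drives fat burning in liver, were lower. Of 29, 1 rose and 18 fell (median -0.43), 2 and 11 with library totals, beside 2 and 14 in HF_C. Cyp4a14, a fatty acid hydroxylase, had CPM of 508, 1396, 1139 and 1736 in LF_C, 507, 305, 223, 287 and 337 in HF_C and 273, 155, 181, 136 and 152 in HF_KO. It fell 6.67-fold against LF_C (log2 fold change -2.74, SE 0.30, edgeR adjusted p = 3.9e-05), with a difference to HF_C that did not pass (log2 fold change -0.88, SE 0.22, edgeR adjusted p = 0.0803). Vnn1, a pantetheinase, had CPM of 155, 248, 225 and 178 in LF_C, 170.1, 190.1, 146, 195 and 141 in HF_C and 79.6, 102, 104, 115 and 61.2 in HF_KO. It fell against LF_C (log2 fold change -1.13, SE 0.18, edgeR adjusted p = 5.1e-04) and was lower than in HF_C (log2 fold change -0.86, SE 0.15, edgeR adjusted p = 0.016; not passing without HF_C 4, adjusted p = 0.054), which did not pass against LF_C (log2 fold change -0.27, SE 0.14, edgeR adjusted p = 0.15). Ucp2, a mitochondrial carrier found in macrophages too, was the member that rose (log2 fold change 0.999, SE 0.16, edgeR adjusted p = 4.9e-04). Cpt1a, the gate of mitochondrial oxidation, Pdk4, which spares pyruvate, and the hormone Fgf21 did not pass (-0.20, 0.70 and 0.51 on the log2 scale, SE 0.14, 0.33 and 0.32).

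Among 18 genes of apolipoproteins and lipoprotein assembly 2 rose and 9 fell (median -0.48, or -0.27 without LF_C 4). With library totals 3 rose and 6 fell (median -0.24). Of all genes, 20.0% were higher and 16.3% lower. Apoa4, an apolipoprotein of triglyceride-rich particles, had CPM of 1030.3, 1197, 1297 and 563 in LF_C, 1574, 1666, 1599.6, 1838 and 1947 in HF_C and 2181, 2082, 2406, 2994 and 2535 in HF_KO. It rose 2.38-fold (log2 fold change 1.25, SE 0.21, edgeR adjusted p = 6.8e-04) and was above HF_C (log2 fold change 0.51, SE 0.10, edgeR adjusted p = 0.0347), the latter a call lost without HF_C 1, 2, 3 or 4 or HF_KO 3, 4 or 5 (adjusted p up to 0.095). Mttp, which loads lipid onto apolipoprotein B, fell 1.499-fold (log2 fold change -0.58, SE 0.10, edgeR adjusted p = 8.6e-04), and Apom, a carrier of sphingosine 1-phosphate, 1.78-fold (log2 fold change -0.83, SE 0.08, edgeR adjusted p = 1.9e-05). Of 20 genes of the methionine cycle and methyl transfer 1 rose and 11 fell, 2 and 7 with library totals and 0 and 10 without LF_C 4, and 4 were higher in HF_KO than in HF_C. Bhmt, betaine-homocysteine methyltransferase, had CPM of 2338, 942, 1319 and 1826 in LF_C, 1976, 1390.3, 1342, 1506 and 1527 in HF_C and 2537, 1978, 2270.0, 2292 and 2170.1 in HF_KO. It did not pass against LF_C (log2 fold change 0.48, SE 0.21, edgeR adjusted p = 0.0921) and was above HF_C (log2 fold change 0.54, SE 0.11, edgeR adjusted p = 0.0264), a call lost without HF_C 3, 4 or 5 or HF_KO 1, 3 or 4. Gnmt, which uses up surplus methyl groups, fell 1.89-fold against LF_C (log2 fold change -0.92, SE 0.20, edgeR adjusted p = 0.004).

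Xenobiotic genes fell in part, 9 of 19 tested, and 2 rose, or 6 and 3 with library totals. Of all genes, 16.3% were lower and 20.0% higher. Cyp3a11, the main drug-oxidizing CYP3A of mouse liver, had CPM of 789, 833, 852 and 726 in LF_C, 2981, 2443, 2150.4, 2967 and 2489.6 in HF_C and 1715, 1944, 1721, 1312 and 1727 in HF_KO. The 3 groups did not overlap: it rose 2.10-fold against LF_C (log2 fold change 1.07, SE 0.12, edgeR adjusted p = 3.5e-05) and was lower than in HF_C (log2 fold change -0.62, SE 0.11, edgeR adjusted p = 0.0192), the latter lost without HF_C 4 or HF_KO 3 (adjusted p up to 0.061). The receptors Nr1i2 (PXR) and Nr1i3 (CAR) fell 1.64-fold and 2.40-fold (edgeR adjusted p = 1.8e-04 and 0.0022). Of 22 glutathione and NRF2 genes 5 rose, near the 20.0% higher of all genes, and 1 fell, where 16.3% of all genes were lower. There were 3 higher without HF_KO 3, 9 higher with library totals and 3 lower without LF_C 1. Gstm3, a glutathione transferase, rose 3.04-fold (log2 fold change 1.60, SE 0.32, edgeR adjusted p = 0.0021) and Gsta3 fell 1.52-fold (log2 fold change -0.60, SE 0.11, edgeR adjusted p = 0.0011). Glutathione transferase genes of 1 class are near copies, and their reads may be shared.

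Several genes expressed more in male mouse liver were among the deepest falls. Of 17 male-biased genes tested 2 rose and 11 fell (median -0.88, beside -1.44 in HF_C). Major urinary proteins are pheromone carriers that liver secretes. Mup3 had CPM of 5589, 5009, 5485 and 8325 in LF_C, 623, 1822, 612, 916 and 1078 in HF_C and 959, 1625, 1571, 1516 and 1664 in HF_KO, 4.17-fold lower than LF_C (log2 fold change -2.06, SE 0.18, edgeR adjusted p = 1.1e-05). Mup7 had CPM of 276, 14.6, 172 and 284 in LF_C and 0.324, 1.66, 1.99, 4.36 and 3.52 in HF_KO (log2 fold change -6.29, SE 0.77, edgeR adjusted p = 8.1e-05), with LF_C 2 well below the other LF_C libraries. Mup17 had CPM of 47.5, 13.3, 35.8 and 12.6 in LF_C, 0.722, 15.6, 1.48, 4.08 and 4.47 in HF_C and 0.0809, 0.208, 0.119, 0.513 and 0.296 in HF_KO. It fell (log2 fold change -6.76, SE 0.54, edgeR adjusted p = 5.0e-06) and was also lower than in HF_C (log2 fold change -4.37, SE 0.81, edgeR adjusted p = 0.0211), the latter a call lost without HF_KO 1, 2 or 3 (-3.41 without HF_C 2). The Mup genes are near-identical copies, so the level of any single one is uncertain. Hsd3b5, a steroid dehydrogenase of male liver, had CPM of 27.5, 0.864, 21.4 and 28.5 in LF_C and 0, 0.375, 0.913, 1.72 and 0.259 in HF_KO (log2 fold change -4.87, SE 0.84, edgeR adjusted p = 8.8e-04; -5.64 without HF_KO 4). LF_C 2 held 0.864 CPM of it, inside the HF_KO range. Of 16 female-biased genes 9 were tested, 1 rose and 4 fell. Cyp2c69 and Cyp2c40, members of a family of near copies, had their highest CPM in LF_C 4 (13.1 and 22.1) and fell (-6.64 and -4.42, edgeR adjusted p = 4.8e-04 and 9.8e-04). Without LF_C 4 the falls were -5.11 and -3.05, and without HF_KO 5 that of Cyp2c69 was -7.46. The 1 that rose, Cyp2b13 (log2 fold change 1.84, SE 0.61, edgeR adjusted p = 0.0335), did not pass without HF_KO 1, 2, 3 or 5 or LF_C 1, 3 or 4 (adjusted p up to 0.09 where tested), was 3.07 without LF_C 2, and the sex of the mice is not given.

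Of 16 growth hormone and IGF genes 2 rose and 5 fell (median -0.12), or 4 and 4 with library totals (median 0.12). Of all genes, 20.0% were higher and 16.3% lower. Prlr, the prolactin receptor, fell 2.36-fold (log2 fold change -1.24, SE 0.17, edgeR adjusted p = 1.8e-04), Igf1, the growth factor that liver secretes, 1.49-fold (log2 fold change -0.58, SE 0.11, edgeR adjusted p = 0.0018) and Ghr, the growth hormone receptor, 1.32-fold (log2 fold change -0.40, SE 0.08, edgeR adjusted p = 0.0024). Socs2, a brake on growth hormone signalling, rose 1.95-fold (log2 fold change 0.96, SE 0.25, edgeR adjusted p = 0.0095). Of 23 acute phase genes 6 rose and 9 fell, 5 with library totals and 7 without LF_C 4. Orm2 and Saa2, secreted on inflammation, rose 3.15-fold (log2 fold change 1.66, SE 0.14, edgeR adjusted p = 7.0e-06) and 3.70-fold (log2 fold change 1.89, SE 0.30, edgeR adjusted p = 4.9e-04), while Crp fell 1.43-fold (log2 fold change -0.52, SE 0.09, edgeR adjusted p = 0.0013). Saa2 and Saa1 are near copies. Orm2 was lower in HF_KO than in HF_C (log2 fold change -0.51, SE 0.09, edgeR adjusted p = 0.0211), a call lost without HF_C 4 or HF_KO 2 or 3 (adjusted p up to 0.069).

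Of 20 endothelial genes 3 rose and 4 fell, near the 20.0% higher and 16.3% lower of all genes, or 3 and 6 without LF_C 4 and 6 and 2 with library totals. Clec4g, a lectin of liver sinusoids, fell 1.86-fold (log2 fold change -0.90, SE 0.12, edgeR adjusted p = 1.2e-04), while Cd34, an antigen of ordinary capillaries that sinusoids lack, rose 5.32-fold (log2 fold change 2.41, SE 0.24, edgeR adjusted p = 1.7e-05) and Vwf, von Willebrand factor, 1.90-fold (log2 fold change 0.93, SE 0.21, edgeR adjusted p = 0.0047). Of 24 endoplasmic reticulum stress genes 1 rose and 3 fell (Herpud1, Dnajb9 and Ppp1r15a), or 2 and 1 with library totals. For all genes the shares were 20.0% higher and 16.3% lower, and in HF_C 7 of the 24 rose and 1 fell. Atf3, a stress transcription factor, rose 4.43-fold (log2 fold change 2.15, SE 0.26, edgeR adjusted p = 7.1e-05). Of 19 clock genes 2 rose and 8 fell, 2 and 2 with library totals and 5 lower without LF_C 1. Npas2 rose, with CPM of 0.532, 0.993, 0.396 and 0.397 in LF_C and 2.87, 1.62, 0.993, 4.91 and 7.11 in HF_KO (log2 fold change 2.57, SE 0.57, edgeR adjusted p = 0.0041). It varied widely among HF_KO libraries, and hours of sampling are not given in the sources used here. Of 6 erythrocyte genes tested 1 fell, Hba-a1 (log2 fold change -0.53, SE 0.16, edgeR adjusted p = 0.0211), a near copy of Hba-a2, and without HF_KO 2, LF_C 2 or LF_C 4 it did not pass (adjusted p up to 0.056). Of 12 genes of skeletal muscle and pancreas 2 were tested and Cela1 fell (log2 fold change -0.92, SE 0.28, edgeR adjusted p = 0.0204), a call lost without LF_C 4 (adjusted p = 0.062).

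**Figure D5:**
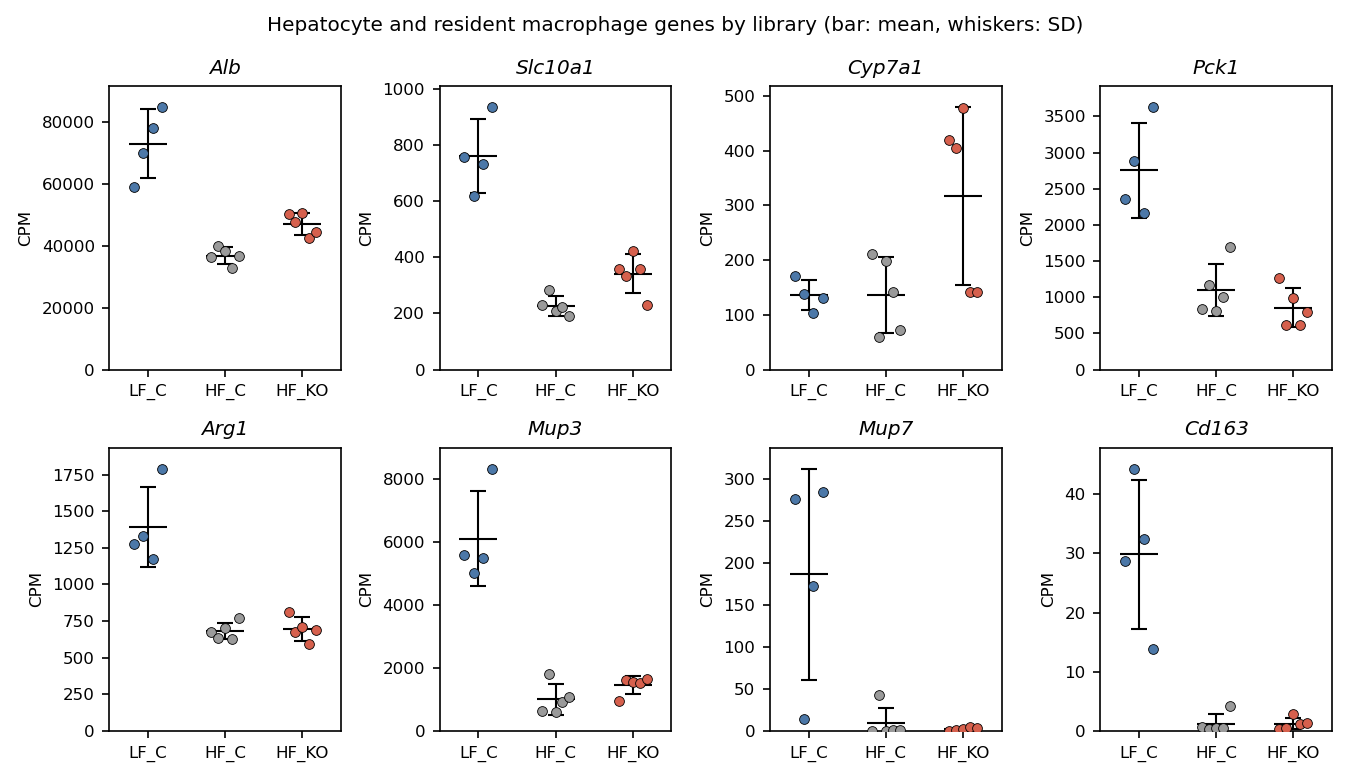
CPM of 7 hepatocyte genes and of Cd163, a resident macrophage gene, in each library, each dot 1 mouse, with mean and SD. Alb, Slc10a1, Pck1, Arg1, Mup3 and Cd163 lie lower in every HF_KO library than in any LF_C library, and Cyp7a1 splits into 3 high and 2 low HF_KO libraries.

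Ranked by log2 fold change among protein-coding genes of at least 2 CPM in the higher group that passed and did not overlap, the 10 highest genes were nearly silent in LF_C. Spire2, an actin nucleator, had 3 reads in LF_C and 410 in HF_KO, a ratio of read shares of 107.2 with an exact 95% interval from 36.4 to 522 that covers counting error only. Besides Aqp7, the others were Rbm24, an RNA-binding protein of muscle (5.33), Lrtm2 (5.32), Cftr, the chloride channel of duct cells (5.28), Wdr52 (5.24), Gipc2 (5.08), Mmp7, matrilysin of epithelia (4.95), Tbx1, a T-box transcription factor (4.94), and Shc2, a signalling adaptor (4.83). The fitted log2 fold change of Spire2, which depends on the prior count, was 6.31, and 7.24 without LF_C 2. Without LF_C 2 the others were also larger for Rbm24 (6.59), Lrtm2 (6.03), Cftr (5.96), Mmp7 (6.03) and Shc2 (5.47). Rbm24 had CPM of 0.193, 0.518, 0.044 and 0 in LF_C, 3.87, 2.91, 5.01, 5.71 and 4.64 in HF_C and 8.25, 7.03, 8.98, 9.16 and 6.99 in HF_KO. It alone of the 10 passed between HF_KO and HF_C (log2 fold change 0.87, SE 0.17, edgeR adjusted p = 0.0264), and that call was lost without HF_C 1 or 5 or HF_KO 1, 3 or 4. The 10 lowest were Mup15 (-6.88, or -8.07 without HF_KO 5), Mup17, Cyp2c69, Mup7, Mup11 (-5.08), Cd163, Cyp2c40, Grm8, a glutamate receptor (-4.22), Mup19 (-3.95) and Lect1, chondromodulin (-3.93). Grm8 had CPM of 2.56, 2.42, 2.20 and 3.03 in LF_C and 0.0405, 0.166, 0.0397, 0.147 and 0.259 in HF_KO, and all LF_C libraries were higher.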

How the data were processed

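Per the labels, Trizol was used to take RNA from whole liver, and library preparation did not keep strand. Per the submitters' processing notes, the authors used STAR 2.6.1 and HTSeq 0.6.1 with GRCm38/mm10, and DESeq2; the annotation release is not given in the sources used here. The authors deposited tables of pairs of groups that hold whole-number read counts per gene, a normalized signal (counts over a size factor), FPKM (per kilobase of gene length), log2 fold changes and p-values, with gene length, per the file headers. All results start from the deposited counts; the other units were not used for tests. No table pairs HF_KO with LF_C, so the tables were merged on the gene identifier. This gave 24137 genes (17879 protein-coding), and a library held in more than 1 table had the same count in each, with 0 exceptions. A gene absent from the table that holds LF_C (1673 genes) was set to 0, and 0 of these had an HF_C count above 0.

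In R 4.3.3, edgeR 4.0.16 (limma 3.58.1) fitted each pair of groups: filterByExpr (minimum count 10, total 15), TMM scaling, two-sided quasi-likelihood test, Benjamini-Hochberg adjusted p under 0.05. SE is the log2 fold change over the square root of the F statistic. CPM used TMM factors of all 24 libraries. Exact 95% intervals of ratios and the floor of 3 reads per group at 0 cover counting error only, since PCR copies are not separate molecules. The code was tested on simulated data. Members and the 36 gene lists (738 of 744 members found) were chosen with earlier results of these data known.

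The text names 36 fixed genes, the 10 highest and 10 lowest log2 fold changes (protein-coding, at least 2 CPM in the higher group, no overlap, gene models passed over), up to 4 members per list and direction by adjusted p, the 10 genes with the smallest adjusted p each way between HF_KO and HF_C, the PPARγ-linked and receptor lists, and list members called oppositely in both diet contrasts. Of these the text gives examples. Pnpla2 is named for its role only. Nothing says that libraries came from separate cages or days, and no batch is labelled. Alternatives were RLE scaling, library totals, no filter, at least 2 CPM, DESeq2 1.42.0, all 24 libraries, a replicate block, a log2 fold change of at least 1, and each library left out in turn. No label says that replicate numbers pair the mice. Correlations of deviations between equal numbers of HF_KO and LF_C ran from -0.0666 to 0.0593. They ran from -0.155 to 0.087 for HF_C and LF_C and from -0.118 to 0.184 for HF_KO and HF_C. So few pairs cannot show whether the numbers carry a pairing.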

Additional observations from a re-analysis of the deposited data

Results flagged for a closer look

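The 2 diet contrasts set HF_KO and HF_C each against the same LF_C libraries. The test of their difference is HF_KO against HF_C (edgeR quasi-likelihood test, adjusted p under 0.05). Over all genes tested, it called 152 of 14844 (1.02%). Many of the genes given here were named because they had the smallest adjusted p each way in this same test. Their count therefore does not measure how often named genes differed. Of the named genes, 35 were called. Lower in HF_KO, as log2 fold changes, were Cfd (-5.77), Mup17 (-4.37), Sdcbp2 (-4.06), Cidea (-3.13), Plin4 (-2.27), Kbtbd11 (-1.97), Rufy4 (-1.82), Limk1 (-1.10), Hk2 (-1.06), Cidec (-1.03), Tpm2 (-0.93), Vnn1 (-0.86), Fitm1 (-0.75), Ermp1 (-0.64), Sh3bgrl2 (-0.64), Cyp3a11 (-0.62), Cela1 (-0.61), Nap1l1 (-0.54), Orm2 (-0.51), Pcx (-0.51) and Fitm2 (-0.46). Higher in HF_KO were Lrtm1 (2.68), Aqp4 (1.40), Defb1 (1.22), Akr1d1 (1.05), Pparg (0.99), Rbm24 (0.87), C8b (0.81), Ugt2a3 (0.63), Gas2 (0.61), Bhmt (0.54), Apoa4 (0.51), Car8 (0.48), Serpina1d (0.43) and Bhmt2 (0.38).

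Dixon's test over 78 groups of values flagged the single libraries given here. Chance flags about 1 in 20 of such groups, which is about as many as were flagged. Fgf21 in HF_KO 4 was at 36.6 CPM, against 14.5 to 20.4 in the other HF_KO libraries. LF_C 2 held 2.29 CPM of Trem2 and 4.97 CPM of Gpnmb, the highest LF_C values of both macrophage genes, and still lay below every HF_KO library. Spp1 in HF_KO 3 was at 745 CPM, against 617 to 643 in the others.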

How the results depend on the processing

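For HF_KO against LF_C, RLE scaling, no filter, at least 2 CPM, DESeq2, all 24 libraries and the replicate block left the count of passed genes within 1.5 times of 5331. With a log2 fold change of at least 1, 1994 passed, 1764 higher and 230 lower. With library totals 4543 were higher and 753 lower. Leaving out 1 library gave 4347 to 5136 passed, 2505 to 2924 higher and 1842 to 2265 lower. For HF_C against LF_C, a log2 fold change of at least 1 gave 2293 (1936 higher, 357 lower), library totals 5309 higher and 886 lower, and leaving out 1 library 5025 to 6123 passed (2769 to 3177 higher, 2246 to 2946 lower). For HF_KO against HF_C, DESeq2 called 370 genes (196 higher, 174 lower), the fit of all 24 libraries 90 (30 higher), and a log2 fold change of at least 1 gave 37 (15 higher, 22 lower). Leaving out 1 library gave 64 (without HF_C 4) to 186 (without HF_C 2) passed, 20 (without HF_KO 3) to 104 higher and 41 to 98 lower, so the count in this comparison depends on single libraries. The fit of all 24 libraries did not call Cidec, Apoa4, Bhmt, Cela1, Orm2 or Rbm24 between HF_KO and HF_C. The replicate block used numbers that no label gives as pairs. It called 4298 genes in HF_KO against LF_C (2491 higher, 1807 lower), 4486 in HF_C against LF_C and 158 in HF_KO against HF_C. It did not call Acta2, Akr1d1, Car8, Cela1, Cidec, Col18a1, Hba-a1, Lrtm1, Pcx, Ppard, Ugt2a3 or Vldlr against LF_C; DESeq2 did not call Cidec. Of named genes, 1 reversed: Med1 in HF_C against LF_C, 0.011 with library totals. The cause was not tested.

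Library totals put the median of all genes at 0.20, and members lower went from 25 to 2 in the respiratory chain, from 15 to 7 in bile acid genes and from 8 to 2 in clock genes. Near-identical copies, overlapping genes and low counts in LF_C limit single values.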

Other observations

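Pdcd1, the receptor PD-1 of exhausted T cells, had 1 read in LF_C, 85 in HF_KO and 86 in HF_C. Ccl8, a chemokine for monocytes and T cells, had 2 reads in LF_C, 63 in HF_KO and 112 in HF_C. Both were read after their values were seen. Their ratios of read shares in HF_KO against LF_C were 66.7 (exact 95% interval 11.7 to 2665) and 24.7 (6.56 to 209). These intervals pool the reads of all mice of a group and cover counting error only, not the spread between mice. Ccl8 was not called in HF_KO against LF_C with all libraries, and was called without LF_C 4 (log2 fold change 3.84, edgeR adjusted p = 0.0104).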
